A study of Homo sapiens with 24 samples.

Results

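The genes described here encode the RNA polymerase I (Pol I) transcription machinery. They are 10 of the 60609 gene rows of the deposited table, chosen by name as Pol I subunits and ribosomal DNA (rDNA) transcription factors. Their measured values were not used in the choice, but earlier results of these data were known when it was made. All 10 were among the 16062 genes that had a value of 1 TPM or more (TPM, transcript abundance scaled to the same column total in every library) in 3 or more libraries and were therefore tested. They comprise the polymerase subunits POLR1A, POLR1B, POLR1C, POLR1D and POLR1E, the initiation factor RRN3, the rDNA-binding factor UBTF, and TAF1A, TAF1C and TAF1D of the promoter complex SL1.

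Polyadenylated RNA was sequenced from A549 cells, an established human lung adenocarcinoma line. All cells were transfected for 48 h, either with a pool of siRNAs against BOP1 (siBOP1) or with siRNA against firefly luciferase (siFLuc), which served as the control. They were then mock treated or given interferon beta (IFN) at 1000 units/mL, and harvested at 8 h or 12 h. This gave 8 groups of 3 libraries (siFLuc mock, siFLuc IFN, siBOP1 mock and siBOP1 IFN at each time), 24 in all, from 1 cell line and with no untransfected group. The labels do not say whether the 3 libraries of a group came from separate cultures, so the p-values measure the spread between these libraries, which may be technical.

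Pol I transcribes a single kind of gene, the rDNA repeats in the nucleolus, whose long precursor RNA is cut into most of the ribosomal RNAs. UBTF coats the repeat and holds its chromatin open, SL1 marks the promoter, and RRN3 bridges the polymerase to SL1, a step through which growth and stress signals act. BOP1 works further down the same pathway, with PES1 and WDR12 in the maturation of the large ribosomal subunit. Ribosomal RNA carries no poly(A) tail, so these libraries measured the messenger RNAs of the machinery and not the rate of rRNA synthesis.

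The siRNA and IFN labels were checked first. BOP1 averaged 66.4 TPM in siFLuc mock cells at 8 h and 18.6 TPM in siBOP1 mock cells, and its remaining share over the 4 matched pairs of groups lay between 23.5% and 29.6%. MX1, an IFN-induced antiviral gene, ranged from 0.709 to 2.54 TPM in the 12 mock libraries and from 644 to 979 TPM in the 12 IFN libraries, with no overlap. Epithelial keratins were abundant (KRT8 at 2086 to 3803 TPM), while of the leukocyte markers PTPRC reached at most 0.021 TPM and CD3E was listed at 0 in every library. CD14, another marker of that list, was present in every library, at 1.81 to 5.26 TPM in mock and 2.04 to 4.28 TPM in IFN libraries. Of the fibroblast markers COL1A1 ran from 5.37 to 19.3 TPM in mock and from 5.68 to 18.2 TPM in IFN libraries, with COL1A2, DCN and PDGFRB at 0.334 TPM or less, and the endothelial markers PECAM1, VWF and CDH5 reached at most 0.345 TPM. The 6 markers chosen for A549 epithelial cells were KRT8, KRT18, KRT7, CDH1, AKR1B10 and NQO1. Their sum ran from 10813 to 12453 TPM in mock and from 10112 to 12210 TPM in IFN libraries, and AKR1B10 and NQO1 averaged 2585 and 1952 TPM of it. One library stood apart: in siFLuc mock at 12 h, the library numbered 4 had 6.86% of its TPM in mitochondrial transcripts, against 14.5% and 15.0% in the other libraries of that group. The IFN libraries numbered 4 at 12 h had lower levels of other IFN-induced genes. IFIT1 read 553 TPM in siFLuc IFN number 4 against 1242 and 1306 TPM in the other libraries of its group, and 841 against 1268 and 1338 TPM in siBOP1 IFN. ISG15 read 1362 against 2049 and 2181 TPM, and 1784 against 2514 and 2465 TPM. At 8 h the libraries numbered 4 also had the lowest IFIT1 and ISG15 of each IFN group, but nearer to the others (IFIT1 at 1123 against 1199 and 1305 TPM with siFLuc).

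TPM corrects for transcript length, so levels can be set side by side between genes. The levels of the 10 genes spread widely. TAF1D was highest at 102 ± 16.3 TPM (SD, n = 24 libraries), followed by POLR1D at 85.4 ± 10.3 and UBTF at 60.3 ± 8.43 TPM. RRN3 (30.2 ± 4.51 TPM), POLR1C (26.6 ± 4.69), POLR1E (22.9 ± 6.41) and POLR1B (18.4 ± 3.65) formed the middle of the order. POLR1A, which encodes the largest catalytic subunit, lay near the bottom at 15.9 ± 3.35 TPM, with TAF1C (15.4 ± 3.46) and TAF1A (13.0 ± 4.19). From RRN3 downwards, neighbours in this order differed by less than the larger of their SDs, whereas TAF1D, POLR1D, UBTF and RRN3 were each separated by more than that. The SDs run over all groups and so include the differences between them.

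The genes lie on 8 chromosomes. In GENCODE 29 on GRCh38, POLR1A is on the minus strand of chromosome 2 (86020216 to 86106155), POLR1B on the plus strand of chromosome 2 (112541915 to 112577150) and POLR1E on the plus strand of chromosome 9 (37485935 to 37503697). UBTF is on chromosome 17 (44205033 to 44221626, minus strand), POLR1D on chromosome 13 (27620742 to 27744237, plus strand) and TAF1A on chromosome 1 (222557902 to 222589933, minus strand), with no overlapping protein-coding gene for any of these 6. POLR1C on chromosome 6 (43509702 to 43562419), RRN3 on chromosome 16 (15060022 to 15094317), TAF1C on chromosome 16 (84177847 to 84187070) and TAF1D on chromosome 11 (93729948 to 93784391) each overlap genes on the other strand, RRN3 with PDXDC1 and TAF1C with DNAAF1. TAF1D also holds 8 annotated small nucleolar RNA genes. The library kit keeps strand, but whether the quantification used it is not given in the sources used here, so reads of these 4 genes and of their partners may not be fully separated. PDXDC1 averaged 68.0 TPM, above the 30.2 TPM of RRN3. RRN3 further has pseudogene copies in the table: RRN3P1 averaged 4.17 TPM, RRN3P3 3.94 TPM, RRN3P2 0.060 TPM and RRN3P4 0.0018 TPM, and how reads shared with them were assigned is not stated.

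**Figure D1:**
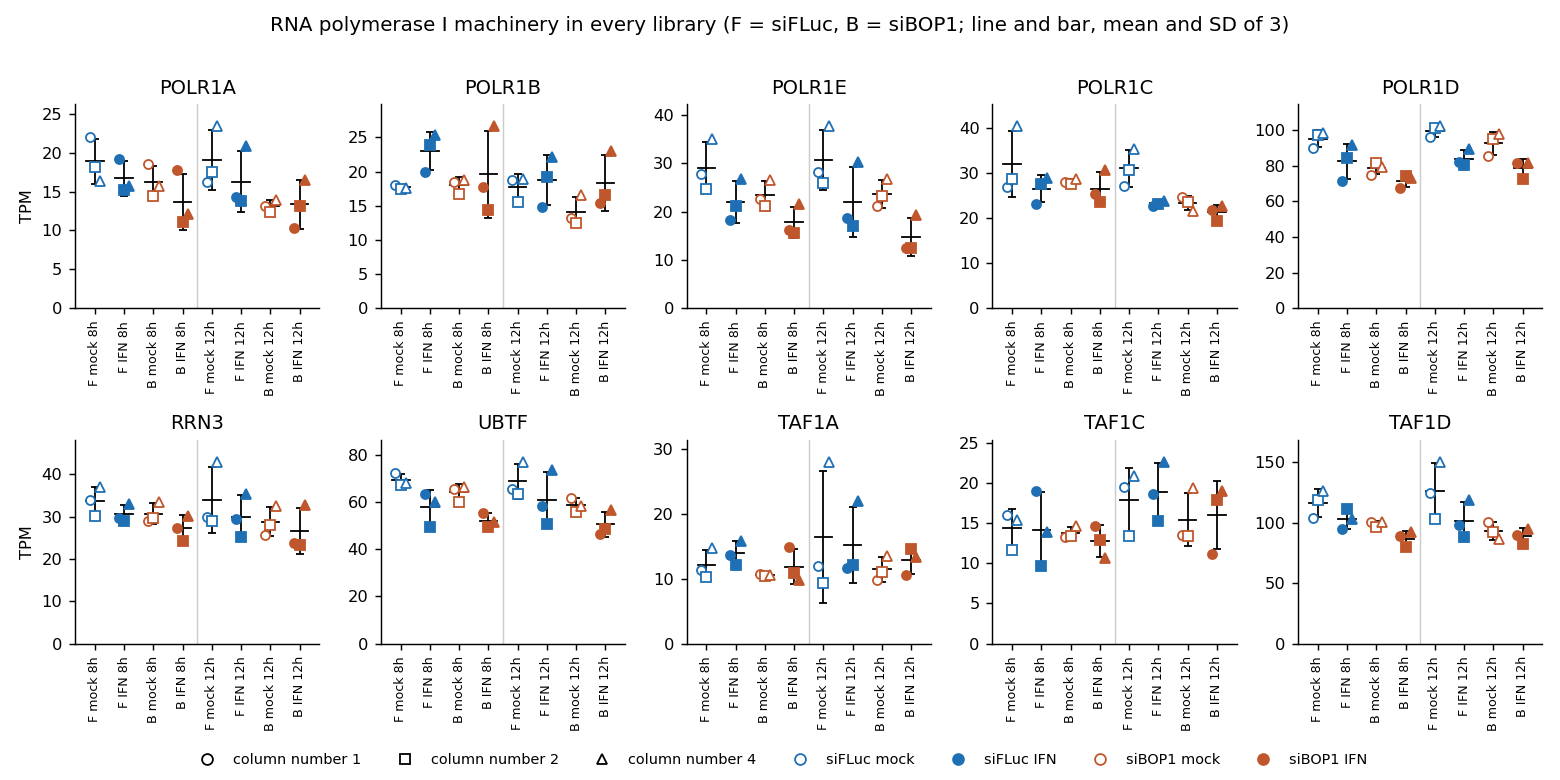
TPM of each Pol I machinery gene (vertical axis, from 0) in all 24 libraries, by group (horizontal axis; F, siFLuc; B, siBOP1; open, mock; filled, IFN), with the mean and SD of 3 libraries. The mean of POLR1E is lower in IFN than in mock in each of the 4 pairs of groups, and TAF1A in siFLuc mock cells at 12 h has 1 library at 28.0 TPM above the others at 11.9 and 9.27 TPM.

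The first question was what IFN did to the messenger RNAs of the polymerase and its factors. Averaged over both siRNAs and both times (12 against 12 libraries), 5 of the 10 genes were called lower under IFN at an adjusted p under 0.05 and 0 were called higher: POLR1E, UBTF, POLR1C, POLR1D and TAF1D. Of all genes tested, 29.0% were called lower and 13.0% higher on the deposited TPM scale, and 18.5% lower and 18.3% higher after the columns were rescaled by their median ratio to a reference library. The excess of lower calls therefore depends on the scaling, and under the rescaling 2 of the 10 genes were called lower and 1 higher. The median log2 change of the 10 genes was -0.17, and that of all genes was -0.10. The Pol I-specific subunit POLR1E had the largest change of the 10. POLR1B, a catalytic subunit, had a value on the other side of 0.

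POLR1E forms a heterodimer with POLR1G on the body of the polymerase, a Pol I-specific module that takes part in initiation and elongation. In siFLuc cells at 8 h, POLR1E stood at 27.7, 24.7 and 35.0 TPM in the mock libraries numbered 1, 2 and 4, and at 18.2, 21.1 and 26.8 TPM under IFN. At 12 h the siFLuc values were 28.1, 26.0 and 37.7 TPM in mock and 18.6, 17.0 and 30.3 TPM under IFN. The library numbered 4 was the highest of its group each time, and the mock and IFN groups overlapped through it. At 12 h these libraries are the mock library with few mitochondrial transcripts and the IFN library with low IFIT1 and ISG15, whose part in the overlap was not tested. In siBOP1 cells POLR1E went from 22.7, 21.1 and 26.6 TPM in mock to 16.1, 15.6 and 21.5 TPM under IFN at 8 h. The siBOP1 values at 12 h were 21.1, 23.2 and 26.8 TPM in mock and 12.4, 12.4 and 19.3 TPM under IFN, and these groups did not overlap. Averaged over the 4 strata, POLR1E fell by 0.49 ± 0.11 on the log2(TPM + 1) scale (SE; limma adjusted p = 0.000976), a drop of 28.6% on that scale, and it was lower in 12 of 12 same-numbered pairs. Over the libraries numbered 1 and 2 alone the fall was 0.55 ± 0.05 (adjusted p = 2.3e-06). The labels do not pair same-numbered libraries, so counts of pairs, here and below, describe the values and do not stand for 12 independent replicates. Pairs were not counted over all genes. Of all genes tested, 66.1% had an averaged IFN value below 0 and 50.1% an averaged siBOP1 value below 0.

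POLR1G, the partner of POLR1E, is not among the 10 genes. Its annotated gene overlaps PPP1R13L and ERCC1 on the other strand. Reads of POLR1G and of these partners may therefore also not be fully separated, which holds for all its values here and below. POLR1G fell by 0.51 ± 0.09 (adjusted p = 0.000145), and was lower under IFN in 12 of 12 same-numbered pairs. Its highest mock library had 31.0 TPM and its lowest IFN library 7.49 TPM, the latter in siBOP1 cells at 12 h. POLR1F, a stalk subunit that contacts RRN3, fell by 0.22 ± 0.07 (adjusted p = 0.0234), and POLR1H, a small subunit that takes part in RNA cleavage by the polymerase, by 0.26 ± 0.06 (adjusted p = 0.000936). The POLR1F call was lost under the rescaling (-0.13 ± 0.06, adjusted p = 0.0981). TAF1B, a further TBP-associated factor of SL1, had a log2 difference of -0.12 ± 0.07 (adjusted p = 0.227).

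POLR1C and POLR1D form a heterodimer shared by Pol I and RNA polymerase III (Pol III) that nucleates assembly of both enzymes. POLR1D ranged from 74.8 to 102 TPM in the 12 mock libraries (median 95.4) and from 67.4 to 91.4 TPM in the 12 IFN libraries (median 81.1). The arms overlapped, but within same-numbered pairs POLR1D was lower under IFN in 12 of 12, and it fell by 0.21 ± 0.04 (adjusted p = 0.000759). POLR1C fell by 0.21 ± 0.07 (adjusted p = 0.0155), from a median of 27.8 TPM in mock to 23.5 TPM under IFN, and was lower in 10 of 12 pairs. In siFLuc cells at 12 h POLR1C read 27.2, 30.8 and 35.4 TPM in mock and 22.8, 23.1 and 23.9 TPM under IFN, without overlap. Both subunits of the shared heterodimer passed the test, with the same estimate to 2 decimals.

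Among the promoter factors, UBTF fell by 0.24 ± 0.06 (adjusted p = 0.0031) and was lower in 12 of 12 pairs. In siFLuc cells at 8 h it read 72.5, 67.4 and 67.9 TPM in mock and 63.6, 49.5 and 60.2 TPM under IFN. The siBOP1 libraries at 8 h gave 65.6, 60.1 and 66.6 TPM in mock and 55.6, 49.4 and 51.6 TPM under IFN. Neither pair of groups overlapped at that time. TAF1D, an SL1 subunit, fell by 0.18 ± 0.06 (adjusted p = 0.0223) and was lower in 11 of 12 pairs. RRN3 ranged from 25.7 to 43.0 TPM in mock (mean 31.7 ± 4.64, SD, n = 12) and from 23.3 to 35.3 TPM under IFN (mean 28.6 ± 3.95). It was lower in 11 of 12 pairs, but its difference of -0.15 ± 0.08 did not pass (adjusted p = 0.144). TAF1A ran from 9.27 to 28.0 TPM in mock and from 9.82 to 21.9 TPM under IFN, and TAF1C from 11.6 to 21.0 TPM and from 9.65 to 22.7 TPM, so that both overlapped almost fully. These SL1 subunits had differences of 0.12 ± 0.14 for TAF1A (adjusted p = 0.546) and -0.01 ± 0.12 for TAF1C (adjusted p = 0.941). The sign for TAF1C turned under other scalings and with single libraries left out.

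POLR1A and POLR1B encode the catalytic core, the largest and the next-largest subunit, and their values under IFN differed in sign. POLR1A had a log2 difference of -0.16 ± 0.10 (adjusted p = 0.197). POLR1B had 0.21 ± 0.09 (adjusted p = 0.074) and was higher under IFN in 9 of 12 pairs. In siFLuc cells at 8 h POLR1B read 18.1, 17.4 and 17.6 TPM in mock and 20.0, 23.8 and 25.4 TPM under IFN, without overlap. At 12 h the siFLuc values were 18.7, 15.5 and 18.9 TPM in mock and 14.9, 19.3 and 22.2 TPM under IFN, which overlapped. In siBOP1 cells the 8 h values were 18.5, 16.7 and 18.8 TPM in mock and 17.8, 14.4 and 26.6 TPM under IFN, and those at 12 h were 13.2, 12.4 and 16.6 TPM in mock and 15.4, 16.6 and 23.0 TPM under IFN. The highest IFN value was the library numbered 4 in all 4 strata, at 12 h the libraries with low IFIT1 and ISG15. Over the libraries numbered 1 and 2 alone the averaged difference of POLR1B was 0.11 ± 0.07 (adjusted p = 0.232).

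**Figure D2:**
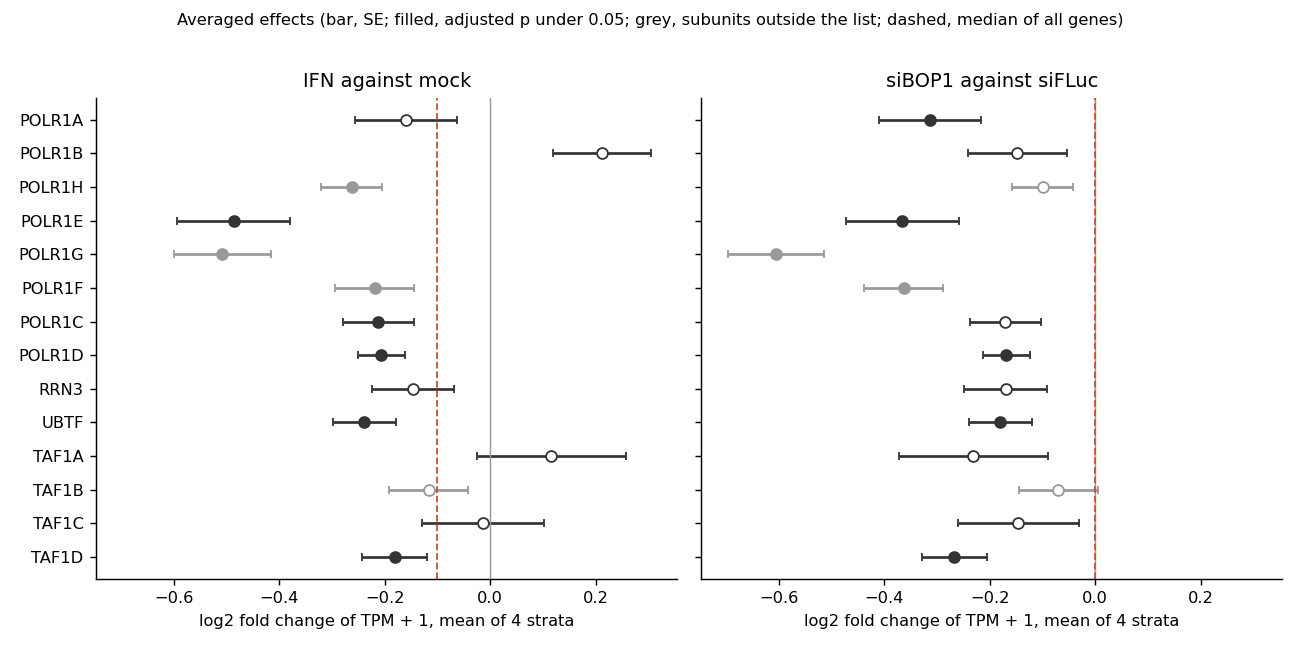
Averaged log2 fold change of TPM + 1 (horizontal axis) with its SE for the 10 genes (black) and 4 further Pol I genes (grey), for IFN against mock (left) and siBOP1 against siFLuc (right). Filled points passed the adjusted threshold, and the dashed line marks the median of all genes tested, -0.10 for IFN and -0.0007 for the siRNA. POLR1E and POLR1G are lowest on the left, and all 10 genes lie below 0 on the right.

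The scaling of the columns moved these calls. With the rescaling by median ratios, the median IFN change of all genes moved from -0.14 to -0.006 in siBOP1 cells at 8 h, and from -0.10 to -0.02 in the averaged effect. The 3 checked IFN-induced genes (IFIT1, MX1 and ISG15) took 0.266% to 0.453% of TPM in IFN libraries, and at most 0.00188% in mock libraries. Under that rescaling 3 of the 10 genes were called. POLR1E (-0.39 ± 0.09, adjusted p = 0.00213) and UBTF (-0.14 ± 0.04, adjusted p = 0.0117) fell, and POLR1B rose (0.30 ± 0.08, adjusted p = 0.00756). POLR1C, POLR1D and TAF1D kept a value below 0 with adjusted p of 0.21, 0.095 and 0.273. Relative to the other genes of these cells, then, only POLR1E and UBTF among the 10 were called lower under both scalings, and POLR1B was called higher under the rescaling.

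A block on the column number raised the genes called for the averaged IFN effect to 8, 7 lower and 1 higher, where 37.7% of all genes were called lower and 16.5% higher. The additional calls were POLR1A (adjusted p = 0.0148), RRN3 (adjusted p = 0.00278) and POLR1B, the one called higher (adjusted p = 0.0192). Without the siFLuc mock library numbered 4 at 12 h, the averaged calls were again 5 without the block (28.6% of all genes called lower), and 7 lower and 1 higher with it (37.6% called lower). With all 24 libraries, the block leaves the estimates as they are and removes a shared shift of same-numbered libraries from the error. With a library left out, it can also move the estimates.

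Promoter sequence was examined because POLR1B and POLR1E had values of opposite sign. RefSeq promoter windows on GRCh38.p14 (250 bases before to 50 after each annotated start) were held for 9 of the 10 genes, and POLR1E had no entry. Of 7 motifs searched on both strands, chosen after the values were seen, the core of the interferon-stimulated response element (2 copies of GAAA separated by 2 bases) was found in 3.57% of 35116 windows. Counted by gene it was in 4.38% of 27305 genes, and in 1 of the 9, POLR1B. It is shown beside stretches from the windows of the 3 checked IFN-induced genes, with the match in capitals. A window whose matches spanned more than 30 bases is shown by its first match alone. The POLR1B stretch is at chr2:112542326-112542355, with the match starting at position -129 from the start site of its window. It lies downstream of the GENCODE gene start given above, and the POLR1B window at an earlier start site held no match. The MX1 stretches, from windows at different start sites, are at chr21:41420559-41420588 and chr21:41431844-41431873, that of ISG15 at chr1:1013377-1013406 and that of IFIT1 at chr10:89392503-89392532, all on the plus strand.
POLR1B: ttgaccccgaGAAACCGAAAccgcagggcc
MX1: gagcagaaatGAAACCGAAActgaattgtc
MX1, other start: ggtcactctgTTTCTCTTTCcgtgaataaa
ISG15: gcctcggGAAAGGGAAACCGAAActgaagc
IFIT1: ttagTTTCACTTTCcccTTTCGGTTTCcct
Read on the strand of the motif, POLR1B and the first MX1 stretch hold GAAACCGAAA, as do 1 of the 2 matches shown for ISG15 and 1 of the 2 for IFIT1. The remaining matches shown differ in letters: GAAAGAGAAA in the other MX1 stretch, GAAAGGGAAA in ISG15 and GAAAGTGAAA in IFIT1. A match in letters is a description of the window and does not show that a factor binds there.

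The motif most shared among the 10 genes was the ETS-type site CCGGAAG, present in 10.3% of windows, in 12.2% of genes and in 6 of the 9 genes with a window: POLR1B, POLR1C, RRN3, TAF1A, TAF1C and TAF1D. ETS-family factors bind this site in the promoters of many housekeeping genes. TAF1C carried it on both strands within 30 bases (chr16:84187038-84187067, minus strand), and RRN3 just after its start (chr16:15094292-15094321, minus strand).
TAF1C: aggcaCTTCCGGtccaaaCCGGAAGaccgt
RRN3: tggcacgcgcaaCTTCCGGgacagaggctg
On the deposited scale, the averaged IFN values were -0.21 for POLR1C and -0.18 for TAF1D, both called lower. Those of POLR1B and TAF1A were 0.21 and 0.12, and neither was called. RRN3 and TAF1C had values below 0 that were not called either. The part of the site in these values was not tested. The E-box CACGTG, the site of MYC and MAX, was in 8.77% of genes and in 0 of the 9. The GC box GGGCGG was in 5 of the 9 (48.3% of genes), the CCAAT box CCAAT in 4 (39.7%), the STAT palindrome TTCCNGGAA in 1, TAF1D (1.44%), and the YY1 core AAGATGG in 1, POLR1C (7.11%). For every motif the shares run over all genes with a window, whether or not they passed the filter here. The 9 genes all passed it, so the shares are not those of genes expressed like them.

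In the single IFN comparisons of 3 against 3 libraries, few of the 10 genes passed. In siFLuc cells 0 were called at 8 h (5.07% of all genes were called lower) and 0 at 12 h (6.43%), with 2 and 4 of the 10 at an unadjusted p under 0.05. Of the 16062 genes tested, 2292 were lower and 1367 higher at that unadjusted p at 8 h, and 2473 and 1766 at 12 h. In siBOP1 cells 0 were called at 8 h (9.11%), and 1 of the 10 had an unadjusted p under 0.05, where 3149 of all genes were lower and 1337 higher. At 12 h POLR1E was called (7.58%). The fall of POLR1E there was 0.68 ± 0.21 (adjusted p = 0.0367), and this call was lost when any 1 of 5 of the 6 libraries was left out, with adjusted p up to 0.155. With the block, the numbers called lower with siFLuc were 3 at 8 h (12.7% of all genes) and 4 at 12 h (15.8%), and with siBOP1 2 at each time (20.4% and 16.6%). POLR1E was called in each of these 4 comparisons with the block, with adjusted p of 0.00693, 0.00111, 0.00531 and 4.6e-05. The block added POLR1D with siFLuc at either time and with siBOP1 at 12 h, UBTF at 8 h with either siRNA, and POLR1C and TAF1D with siFLuc at 12 h. Without the siFLuc mock library numbered 4 at 12 h, the block called 2 with siFLuc at 12 h, POLR1E and POLR1D (13.2% of all genes called lower).

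**Figure D3:**
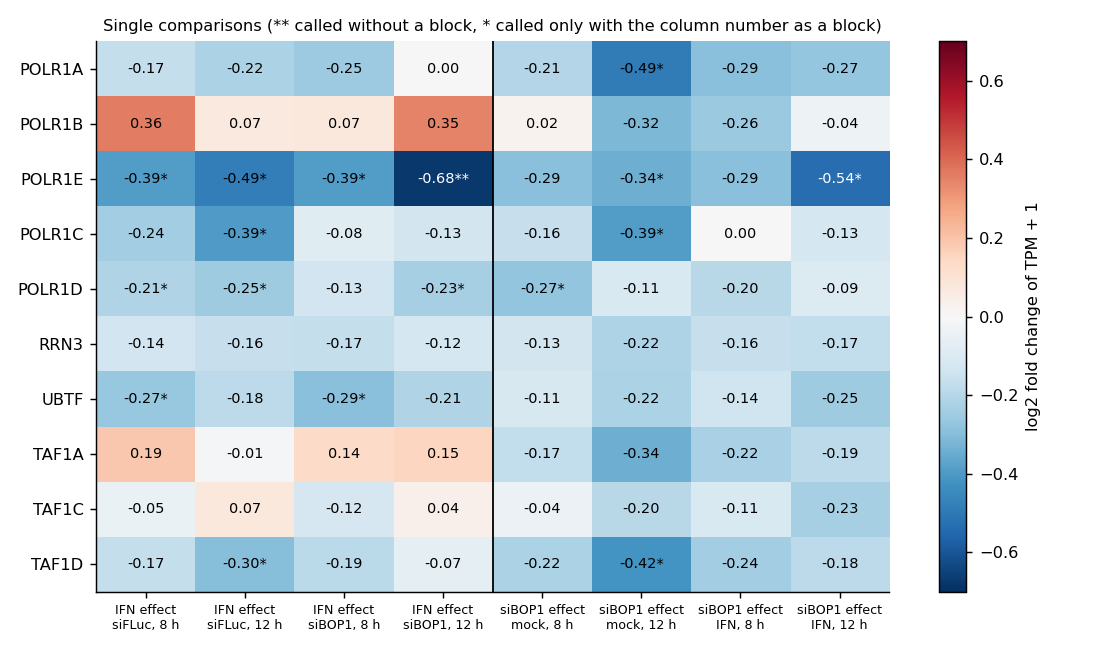
Log2 fold change of TPM + 1 for the 10 genes (rows) in the 4 IFN and 4 siBOP1 comparisons of 3 against 3 libraries (columns); colour gives the same value as the printed number. The 4 IFN values of POLR1E lie between -0.39 and -0.68, those of POLR1B are all above 0, and the 12 h mock column holds the lowest siRNA value of 6 of the genes, but of 4 (POLR1A, POLR1B, POLR1C and TAF1D) without the siFLuc mock library numbered 4.

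The second question was whether depletion of BOP1 altered the same genes. Averaged over both treatments and both times, all 10 genes lay below 0 in siBOP1 against siFLuc cells. Of these, 5 were called lower (6.91% of all genes) and 0 higher (10.0% of all genes): POLR1E, POLR1A, TAF1D, UBTF and POLR1D. Their median log2 change was -0.18, whereas that of all genes tested was -0.0007. The changes were small, at most 0.37 in log2 size.

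POLR1E fell by 0.37 ± 0.11 (adjusted p = 0.0214). Its siBOP1 libraries ranged from 12.4 to 26.8 TPM (median 21.1) and its siFLuc libraries from 17.0 to 37.7 TPM (median 26.4), and siBOP1 was lower in 12 of 12 same-numbered pairs. POLR1G had the larger change, a fall of 0.61 ± 0.09 (adjusted p = 8.6e-05), also in 12 of 12 pairs. In mock cells at 12 h POLR1G read 24.2, 25.8 and 23.1 TPM with siFLuc and 16.4, 14.9 and 13.3 TPM with siBOP1, with no overlap. POLR1F fell by 0.36 ± 0.07 (adjusted p = 0.00181). POLR1H and TAF1B had values of -0.10 ± 0.06 (adjusted p = 0.271) and -0.07 ± 0.07 (adjusted p = 0.591).

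The catalytic subunit POLR1A fell by 0.31 ± 0.10 (adjusted p = 0.0294). In mock cells at 12 h it read 16.2, 17.5 and 23.4 TPM with siFLuc and 13.1, 12.4 and 13.9 TPM with siBOP1, and these groups did not overlap. At 8 h the mock values, 22.1, 18.2 and 16.4 TPM with siFLuc and 18.5, 14.4 and 15.7 TPM with siBOP1, did. POLR1A was lower in 12 of 12 pairs. The 7-mer GCCAGTT was picked from earlier results on genes that were lower with siBOP1 in these same libraries. It occurs 2 times in the longest annotated 3′ UTR of POLR1A (7207 bases) and 0 times in those of the other 9 genes. That is 10.0% of the 10 genes, beside 13.2% of the 12662 tested genes with a 3′ UTR. The 3′ UTR of POLR1A is also the longest of the 10, ahead of that of POLR1D (4342 bases). The part of the 7-mer in the lower level of POLR1A was not tested. The other catalytic subunit, POLR1B, had a value of -0.15 ± 0.09 (adjusted p = 0.321), lower in 7 of 12 pairs.

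TAF1D fell by 0.27 ± 0.06 (adjusted p = 0.00425), UBTF by 0.18 ± 0.06 (adjusted p = 0.0437) and POLR1D by 0.17 ± 0.04 (adjusted p = 0.0109), each lower in 12 of 12 pairs. TAF1D had a median of 108 TPM over the siFLuc libraries (88.4 to 151) and of 92.2 TPM over the siBOP1 libraries (80.1 to 101). For RRN3 the difference was -0.17 ± 0.08 and lower in 12 of 12 pairs, yet it did not pass (adjusted p = 0.156). POLR1C (-0.17 ± 0.07, adjusted p = 0.0918), TAF1A (-0.23 ± 0.14, adjusted p = 0.302) and TAF1C (-0.15 ± 0.12, adjusted p = 0.447) did not pass either, and were lower in 9, 8 and 8 of 12 pairs.

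**Figure D4:**
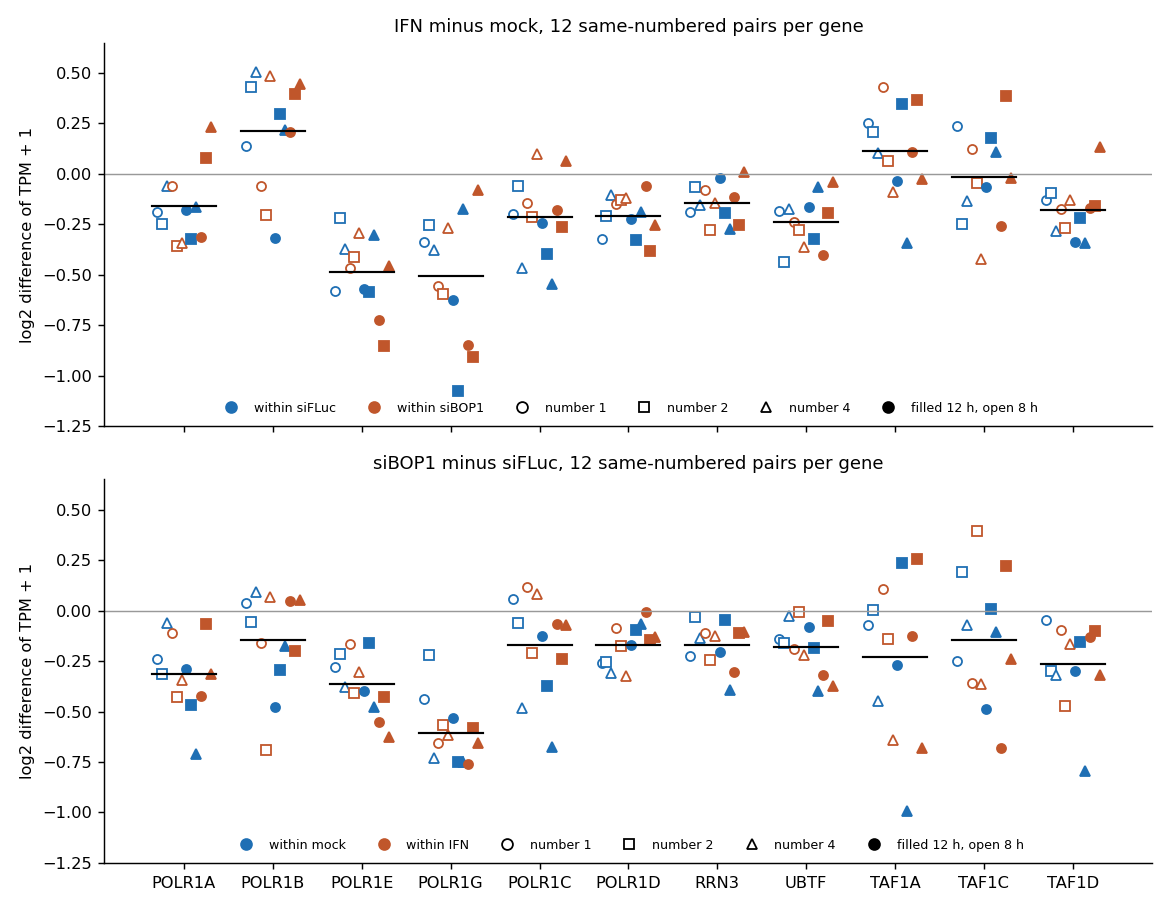
Differences in log2(TPM + 1) between same-numbered libraries (vertical axis), 12 per gene, for IFN minus mock (top) and siBOP1 minus siFLuc (bottom); the black line is their mean. POLR1E, POLR1G, POLR1D and UBTF lie below 0 in 12 of 12 pairs in both panels, and POLR1B lies above 0 in 9 of 12 in the top panel. The pairs follow the column numbers and are not given by the labels.

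Some of the siBOP1 calls were lost when single libraries were left out. Without the siFLuc mock library numbered 4 at 12 h, which stood apart, 3 of the 10 genes were called (6.24% of all genes called lower), and POLR1A had -0.28 ± 0.10 (adjusted p = 0.053) and UBTF -0.16 ± 0.06 (adjusted p = 0.0749). That library also carried the TAF1A difference in mock cells at 12 h, which was -0.34 with it and 0.10 without it, and that of RRN3, which went from -0.22 to -0.04. The UBTF call was lost in 17 of 24 fits that left out 1 library and the POLR1A call in 9 of 24, while those of TAF1D, POLR1D and POLR1E were lost in 0 of 24. In the fit with the block, 7 genes were called lower (13.9% of all genes), with POLR1C (adjusted p = 0.022) and RRN3 (adjusted p = 0.00204) added, and 7 were called (13.1% of all genes) when that library was left out of the blocked fit. Median-of-ratios rescaling left 5 called lower, against 8.63% of all genes.

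No single siBOP1 comparison of 3 against 3 libraries called any of the 10 genes. The share of all genes called lower was 0.666% in mock cells at 8 h, 0.697% in mock cells at 12 h, 0.760% under IFN at 8 h and 0.268% under IFN at 12 h. At an unadjusted p under 0.05 there were 1, 3, 1 and 1 of the 10. Among the 16062 genes tested, 685, 878, 1017 and 631 were lower at that unadjusted p, and 1391, 1173, 1174 and 813 higher. With the block, 1 gene was called in mock cells at 8 h (POLR1D; 2.58% of all genes), 4 in mock cells at 12 h (POLR1A, POLR1C, POLR1E and TAF1D; 3.35%), 0 under IFN at 8 h (3.84%) and 1 under IFN at 12 h (POLR1E; 1.61%). Of the 4 in mock cells at 12 h, 1 was called without the siFLuc library numbered 4, POLR1A (-0.46 ± 0.12, adjusted p = 0.0423; 1.59% of all genes). With that library left out and no block, the POLR1A value was -0.34, so the block moved it. The siBOP1 comparisons share libraries with the IFN comparisons, so a gene's values in the pair of contrasts are not independent.

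Whether BOP1 siRNA changed the response to IFN was tested as an interaction. At 8 h 0 of the 10 genes and 0% of all genes passed (353 genes at an unadjusted p under 0.05), and at 12 h again 0 of the 10 and 0% of all genes (259 genes). Member values lay between -0.29 and 0.16 at 8 h and between -0.19 and 0.28 at 12 h, and none of the 10 had an unadjusted p under 0.05 at either time. For POLR1E the interaction was -0.0006 ± 0.30 at 8 h and -0.19 ± 0.30 at 12 h. The 95% interval at 8 h ran from -0.63 to 0.63, wider than the IFN effect of -0.39 in siFLuc cells. With the block it ran from -0.28 to 0.28 at 8 h, which leaves out a difference of that size, and from -0.47 to 0.09 at 12 h. With the block 0 of the 10 passed at either time.

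Between 8 h and 12 h, 0 of the 10 genes were called in siFLuc mock (0.131% of all genes), siFLuc IFN (3.53%), siBOP1 mock (0.230%) or siBOP1 IFN cells (2.96%), and 0, 0, 1 and 1 had an unadjusted p under 0.05. Of the 16062 genes tested, 2067, 3094, 1549 and 2897 were higher or lower at that unadjusted p. In siBOP1 mock cells POLR1D read 74.8, 81.6 and 79.4 TPM at 8 h and 85.3, 94.8 and 97.7 TPM at 12 h, without overlap. That difference of 0.23 ± 0.09 had an adjusted p of 0.367, and of 0.0463 with the block, where it was the only one of the 10 called. With the block, 2.93% of all genes were called higher and 1.57% lower in that comparison. The change of the IFN effect with time was called for 0 of the 10 with siFLuc (0.00623% of all genes, 1 gene) and 0 of the 10 with siBOP1 (0%, with 603 genes at an unadjusted p under 0.05).

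The remaining genes of the pathway were described from lists, on the averaged comparisons. The counts stand against 29.0% of all genes called lower and 13.0% higher under IFN, and 6.91% lower and 10.0% higher with siBOP1. After the rescaling those shares were 18.5% and 18.3% under IFN and 8.63% lower with siBOP1. Of the 8 other Pol I subunits and factors, 4 fell under IFN and 3 with siBOP1, with medians of -0.21 and -0.09. That is 50% and 37.5% of the list, and under the rescaling 3 fell in each comparison. Besides POLR1F, POLR1G and POLR1H these include CAVIN1, a caveola protein also described as a release factor for Pol I transcripts, which fell by 0.47 ± 0.08 under IFN (adjusted p = 5.9e-05) and by 0.41 ± 0.08 with siBOP1 (adjusted p = 0.000995). Of the 5 subunits shared by all 3 polymerases, POLR2E and POLR2F fell under IFN and POLR2K rose with siBOP1. The POLR2E call was lost under the rescaling (adjusted p = 0.159).

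Regulators of rDNA chromatin and of the nucleolus moved in both directions under IFN: of 18 genes, 4 rose and 4 fell, with a median of -0.09 beside -0.10 for all genes. The share that fell, 22.2%, was below that of all genes, and under the rescaling 5 rose and 3 fell. The larger changes were rises. SMARCA5 rose by 0.98 ± 0.06 (adjusted p = 5.0e-11) and BAZ2A by 0.75 ± 0.09 (adjusted p = 9.5e-07). They encode the ATPase and the large subunit of NoRC, a remodelling complex known for silencing rDNA repeats. TOP1, which relieves DNA supercoils, rose by 0.53 ± 0.09 (adjusted p = 4.9e-05), and KDM2A, a histone demethylase found at rDNA, by 0.53 ± 0.08 (adjusted p = 1.04e-05). BEND3, a heterochromatin protein, fell by 0.37 ± 0.09 (adjusted p = 0.00241), and so did NPM1, RRP8 and KDM2B, by 0.29, 0.28 and 0.28, of which RRP8 was not called under the rescaling (adjusted p = 0.0708). With siBOP1, 7 of the 18 fell and 0 rose, with a median of -0.11. The nucleolar helicase DDX21 had the largest change, a fall of 0.44 ± 0.10 (adjusted p = 0.0035), and SMARCA5 and BAZ2A had values of 0.03 ± 0.06 and -0.04 ± 0.09 (adjusted p = 0.785 and 0.827).

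Of the 6 t-UTPs, factors of early pre-rRNA processing that are also linked to rDNA transcription, 3 fell under IFN (HEATR1, UTP15 and NOL11; median -0.17) and 4 with siBOP1 (WDR43, UTP15, WDR75 and NOL11; median -0.23). The 30 factors of large-subunit assembly, the pathway of BOP1 itself, had 15 lower and 2 higher calls under IFN (median -0.16) and 10 lower and 0 higher with siBOP1 (median -0.19). The 15 Pol III-specific genes had 5 lower calls under IFN (POLR3G, BRF1, POLR3K, POLR3B and CRCP; median -0.15) and 4 with siBOP1 (POLR3D, POLR3G, POLR3C and POLR3E; median -0.08). For the 7 subunits specific to RNA polymerase II, IFN gave 4 lower calls (POLR2I, POLR2B, POLR2G and POLR2J) and 1 higher, POLR2A at 0.28 ± 0.08 (median -0.20), while siBOP1 gave 0 calls and a median of 0.04. Under IFN the shares called lower were 50% of the t-UTPs, 50% of the assembly factors, 33.3% of the Pol III-specific genes, near the 29.0% of all genes, and 57.1% of the Pol II-specific subunits. The rescaling left 2, 8, 3 and 1 lower calls under IFN in these 4 lists, with 0, 4, 2 and 1 higher. With siBOP1 it gave 5, 14, 5 and 0 lower calls. Genes of these lists named for their call alone were chosen after their values were seen, and no difference between lists was tested.

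**Figure D5:**
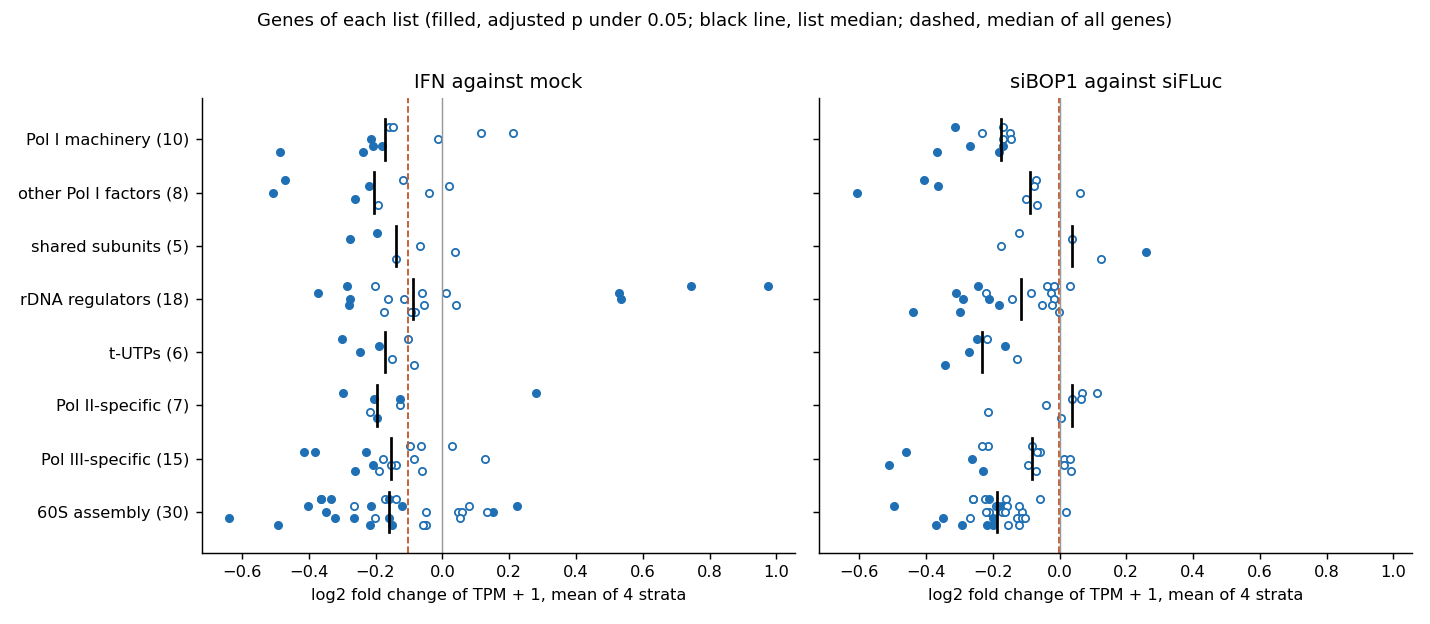
Averaged log2 fold change of TPM + 1 (horizontal axis) for each gene of 8 lists (rows), for IFN against mock (left) and siBOP1 against siFLuc (right); filled points passed the adjusted threshold, black lines are list medians and the dashed line is the median of all genes. The 4 points furthest right on the left panel are SMARCA5, BAZ2A, TOP1 and KDM2A, and on the right panel the Pol I median is -0.18 beside 0.04 for the Pol II-specific subunits.

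Across the 24 libraries, the genes outside the set whose profile was nearest to the mean profile of the 10 were NOP14, DLAT and UBE4A. Their root mean square differences from it were 0.077, 0.079 and 0.080 in log2 units. All 3 had averaged values below 0 for IFN (-0.09, -0.15 and -0.14) and for the siRNA (-0.15, -0.21 and -0.17). Since these 3 were picked by that profile over the same libraries, values near those of the 10 follow from the choice. In libraries made from whole cultures, fewer cells with a transcript and less of it per cell cannot be told apart, which holds for every level given here.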

How the data were processed

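The members and gene lists were chosen with earlier results of these data known. The authors deposited a table of TPM values for 60609 gene rows and 24 libraries, each column summing to 1000000; per the labels' protocols, RNA was prepared with a stranded mRNA kit. The aligner, quantification tool, genome build and annotation are not given in the sources used here. TPM keeps no depth, so the depth is unknown and no counting interval is given. Of the columns, 16 matched a labelled replicate and 8, numbered 4, matched only their group, since the labels count replicates to 3.

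The 16062 genes that reached 1 TPM in 3 or more libraries entered limma (3.58.1, R 4.3.3) on the log2(TPM + 1) scale, computed here: 1 mean per group over 24 libraries, eBayes with a trend, contrasts for single strata and their averages, and Benjamini-Hochberg adjustment over all genes at 0.05. The scale understates changes of low genes. Same-numbered libraries deviated together from their group means (r from 0.115 to 0.508 over genes; -0.012 to 0.156 for numbers 1 and 2 alone), so a block on the column number is given where it changes a call. The fit was run on simulated data with independent noise in each library and planted changes larger than most given here. That run does not cover the shared deviations of same-numbered libraries.

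Named were all 10 members, POLR1F, POLR1G, POLR1H and TAF1B, up to 8 pathway genes with the largest called averaged change, label checks, member pseudogenes and the 3 genes nearest in profile. Alternatives were no trend in eBayes, a pseudocount of 0.1, no filter or a mean of 5 TPM or more, rescaling by median of ratios, normalization by quantiles, fits of the compared groups alone, the block, libraries 1 and 2 only, each library left out, and, chosen after seeing the data, the block without the library that stood apart. Positions came from GENCODE 29, whose ID versions matched those of 3 members, and promoters from RefSeq (GRCh38.p14).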

Additional observations from a re-analysis of the deposited data

How the results depend on the processing

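Depth is unknown, so precision comes from the spread of 3 libraries per group alone. Under all alternatives run, POLR1E, UBTF, POLR1G and POLR1H kept a called fall in the averaged IFN effect, and TAF1D, POLR1F and POLR1G in the averaged siBOP1 effect. The cause of the shifts below was not tested.

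Of the 10 members, the averaged IFN effect was called for 3 under median-of-ratios rescaling and 8 with the replicate block, against 5. The averaged siBOP1 effect was called for 2 with no filter, which tests more genes, 3 with libraries numbered 1 and 2 only, and 3 to 5 with 1 library left out. For the 4 single IFN comparisons (siFLuc 8 h and 12 h, siBOP1 8 h and 12 h), members called were 1, 2, 1 and 2 with quantile normalization and 3, 4, 2 and 2 with the block, and in the first 3 of them 1, 2 and 1 with libraries 1 and 2 only. For siFLuc 12 h there was 1 at a mean of at least 5 TPM and 0 to 3 with 1 library left out. For siBOP1 12 h there were 0 with no filter or only the groups compared and 0 to 1 with 1 library left out. For siBOP1 in mock cells at 12 h there was 1 with quantile normalization, 4 with the block and 0 to 1 with 1 library left out. The block gave 1 for siBOP1 in mock cells at 8 h, 1 under IFN at 12 h, and 1 for time in siBOP1 mock cells. It changed no other count of members by over 1.5 times. An alternative chosen after seeing the data, the replicate block without the siFLuc mock library numbered 4 at 12 h, called 8 members for the averaged IFN effect, 2 for IFN with siFLuc at 12 h and 1 for siBOP1 in mock cells at 12 h. It turned the sign of IFN with siFLuc at 12 h for POLR1B (-0.021) and TAF1A (0.29).

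Log2 values that changed sign were, with rescaling, POLR1A IFN siBOP1 12 h 0.066, POLR1B siBOP1 mock 8 h -0.016, POLR1C IFN siBOP1 8 h 0.070 and siBOP1 under IFN 8 h 0.020, POLR1D IFN siBOP1 8 h 0.025, TAF1A IFN siFLuc 12 h 0.046, TAF1C IFN siFLuc 8 h 0.039, siBOP1 8 h 0.034 and averaged 0.077, and TAF1D IFN siBOP1 12 h 0.0057. With quantile normalization they were POLR1A IFN siBOP1 12 h 0.024, POLR1B siBOP1 mock 8 h -0.016, POLR1C siBOP1 under IFN 8 h 0.015, TAF1A IFN siFLuc 12 h 0.0094 and TAF1C IFN averaged 0.029. With libraries 1 and 2 only they were POLR1B IFN siFLuc 12 h -0.0084, IFN siBOP1 8 h -0.13 and siBOP1 mock 8 h -0.0099, POLR1C siBOP1 mock 8 h 0.00016, TAF1A IFN siFLuc 12 h 0.15 and siBOP1 under IFN 12 h 0.063, and TAF1C IFN siBOP1 8 h 0.039, averaged 0.039 and siBOP1 under IFN 8 h 0.017.

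With 1 library left out, values crossed 0 for POLR1A IFN siBOP1 12 h (-0.16 to 0.16), POLR1B siBOP1 under IFN 12 h (-0.20 to 0.089) and mock 8 h (-0.0060 to 0.073), IFN siBOP1 8 h (-0.16 to 0.26) and siFLuc 12 h (-0.056 to 0.22), POLR1C siBOP1 under IFN 8 h (-0.11 to 0.074) and mock 8 h (-0.27 to 0.015), RRN3 IFN siFLuc 12 h (-0.28 to 0.015), TAF1A siBOP1 under IFN 12 h (-0.34 to 0.093) and mock 12 h (-0.65 to 0.10), IFN siBOP1 8 h (-0.025 to 0.25) and siFLuc 12 h (-0.32 to 0.43), and TAF1C siBOP1 under IFN 8 h (-0.34 to 0.11) and mock 8 h (-0.18 to 0.037), IFN averaged (-0.069 to 0.045), siBOP1 12 h (-0.10 to 0.26), siFLuc 12 h (-0.11 to 0.21) and siFLuc 8 h (-0.27 to 0.19). None of these values was called in the analysis as reported.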
